A study of Mus musculus with 13 samples.

Results

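The end of the time course was examined by setting the 2 arrays of 5.5 and 6.0 h against the 2 arrays of 4.5 and 5.0 h, which are 4 of the 13 arrays of the series, chosen by their labelled time alone. C2C12 is an established myoblast line derived from mouse skeletal muscle. Parallel flasks were grown to near confluence, kept for 24 h in medium with 0.2% fetal bovine serum and then given serum-containing medium again. Total RNA was hybridised to Affymetrix mouse expression arrays, 1 array per time point, every 0.5 h from 0 to 6.0 h. The series looked for oscillating genes, with the formation of embryonic segments as its setting. All groups used here share the cell line, the low-serum block and the return to serum, and their labels differ in time only. Each time point has its own array, so effects of time and of single arrays cannot be told apart. There are no replicates. The difference between the mean log2 ratios of the later and the earlier pair is called the late step, and it spans 1 h between the pair means.

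A cell that leaves quiescence first switches on immediate-early transcription factors and then passes through the first gap phase towards DNA synthesis. Licensing factors load the MCM helicase onto replication origins, and DNA polymerases, clamp loaders and single-strand binding proteins then work at the fork. Many of these genes are known targets of E2F transcription factors, which cyclin-dependent kinases release from the retinoblastoma family. Cholesterol is made from acetyl-CoA through the mevalonate pathway, whose enzymes are known targets of the sterol-responsive factor SREBP2. When sterols are plentiful, as after feeding with serum lipoproteins, Insig proteins hold that factor back in the endoplasmic reticulum.

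Each deposited value is a ratio against a per-probe-set reference. It shows change over time and no absolute level, and the presence of the myoblast markers could not be checked from them. The 13 arrays had median ratios between 0.977 and 1. The spread of log2 ratios over probe sets was 0.194 at 4.5 h, 0.188 at 5.0 h, 0.209 at 5.5 h and 0.238 at 6.0 h. Over probe sets, the arrays of 4.5 and 5.0 h correlated at 0.684 and those of 5.5 and 6.0 h at 0.673, while 5.0 and 5.5 h, which lie in different pairs, correlated at 0.751. These are descriptions over probe sets of the same 4 libraries. Spiked array controls also differed between the pairs. The late step was negative for 16 of 18 hybridisation spike probe sets (median -0.158) and positive for 21 of 27 poly-A spike probe sets (median 0.185). All 3 probe sets of 18S ribosomal RNA were positive, the 5′ one with ratios of 0.889, 3.92, 2.67 and 5.24 from 4.5 to 6.0 h. The part of these control values in the results was not tested.

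The promoters of 5 genes on which the results turn are shown first, as the 250 bases before the annotated start on the gene's own strand (RefSeq, GRCm38.p6). Mcm7, Cdc6 and Uhrf1 stand for the replication genes, and their capitals mark a match to an E2F word. Hmgcs1 and Idi1 stand for the sterol genes, and their capitals mark matches to CCAAT and, in Hmgcs1 only, to a sterol response word. CCAAT also occurs in the Mcm7 and Uhrf1 promoters, where it was left unmarked.
Mcm7 (chr5:138171884-138172133, minus strand): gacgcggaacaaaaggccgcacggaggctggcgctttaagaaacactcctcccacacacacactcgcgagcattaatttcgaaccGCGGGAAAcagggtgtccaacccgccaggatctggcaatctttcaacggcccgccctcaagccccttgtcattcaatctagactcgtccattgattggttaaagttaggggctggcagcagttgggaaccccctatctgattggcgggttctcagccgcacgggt
Cdc6 (chr11:98907901-98908150, plus strand): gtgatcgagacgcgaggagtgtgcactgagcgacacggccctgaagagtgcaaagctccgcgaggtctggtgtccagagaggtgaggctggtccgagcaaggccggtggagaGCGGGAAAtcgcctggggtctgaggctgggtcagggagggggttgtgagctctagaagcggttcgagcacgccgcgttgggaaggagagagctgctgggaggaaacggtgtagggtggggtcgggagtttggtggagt
Uhrf1 (chr17:56304063-56304312, plus strand): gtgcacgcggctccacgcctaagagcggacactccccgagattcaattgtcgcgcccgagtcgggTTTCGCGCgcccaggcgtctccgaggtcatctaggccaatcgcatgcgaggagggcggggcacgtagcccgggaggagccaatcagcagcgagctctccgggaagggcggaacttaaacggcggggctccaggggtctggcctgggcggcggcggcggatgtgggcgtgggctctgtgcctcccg
Hmgcs1 (chr13:119690101-119690350, plus strand): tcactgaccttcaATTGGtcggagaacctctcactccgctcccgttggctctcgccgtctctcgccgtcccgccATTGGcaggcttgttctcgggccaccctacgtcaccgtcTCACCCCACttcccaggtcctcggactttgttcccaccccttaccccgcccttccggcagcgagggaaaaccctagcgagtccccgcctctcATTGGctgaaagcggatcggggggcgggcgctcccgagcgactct
Idi1 (chr13:8885356-8885605, plus strand): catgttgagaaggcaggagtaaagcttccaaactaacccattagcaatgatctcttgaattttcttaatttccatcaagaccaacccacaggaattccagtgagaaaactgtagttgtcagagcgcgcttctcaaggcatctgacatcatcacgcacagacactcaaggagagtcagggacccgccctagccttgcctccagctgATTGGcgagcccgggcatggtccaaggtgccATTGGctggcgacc
The E2F words searched were TTTGGCGC, TTTCCCGC, TTTGCCGC and TTTCGCGC, the sterol word was TCACNCCAC, and the third was CCAAT, each on both strands and chosen with results of these data known. No word contains another, and a gene counts as holding a word if any of its annotated starts does. Several starts were listed for 9 of 43 replication genes and for 2661 of all 14452 genes, Mcm7 and Uhrf1 among them, whose matching start is shown. Of 14452 array genes with a promoter in the reference table, 3.15% held an E2F word, against 11 of 43 replication genes (25.6%). Besides Cdc6, Mcm7 and Uhrf1 these were Mcm5, Mcm6, Orc1, Orc3, Gins3, Pola1, Rfc3 and Dnmt1. CCAAT was found in 39.4% of all promoters and in 14 of 14 promoters of sterol synthesis genes, and also in 26 of 43 promoters of replication genes (60.5%). The sterol word was found in 1.27% of all promoters and in 1 of those 14, that of Hmgcs1. A match describes the letters of this window and says nothing of binding.

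Over all genes, no late step passed the threshold. By limma with Benjamini-Hochberg adjustment at 0.05, 0 of 18193 genes (0%) and 0 of 45037 probe sets were called. At an unadjusted p under 0.05 there were 1239 genes, of which 731 (4.02%) were higher and 508 (2.79%) lower in the later pair, and 2858 probe sets. The smallest adjusted p of a gene was 0.139 (limma), reached by Mcm2, a helicase subunit, and by Fam71a. The error of this fit is the spread between arrays 0.5 h apart, which holds both technical variation and real change within each pair. An exact permutation test of 2 against 2 arrays cannot go below p = 0.333. The steps were small, with a median absolute value of 0.0706 on the log2 scale, against 0.0851 for the step of the same length in the middle of the course, where the same fit called 9 genes (0.0495%), and 0.0811 for the early one, where it called 484 (2.66%). Only 32 genes had an absolute late step of at least 0.5, 14 of them higher and 18 lower. They ran from -0.86 for Zfy2 to 0.75 for the chemokine gene Cxcl5. All values below are therefore descriptions of 4 arrays. A gene is called separated where both later arrays lie on 1 side of both earlier ones, which held upward for 22.8% and downward for 16.0% of all genes. The median late step over all genes was 0.011.

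DNA replication genes were higher in the later pair. Of 51 measured licensing and fork genes, 42 (82.4%, against 22.8% of all genes) were separated upward and 0 downward, and their median late step was 0.21. In RNA from whole flasks, more cells expressing a gene and more RNA per cell cannot be told apart. None of the 51 passed the adjusted threshold, and 27 had an unadjusted p under 0.05. Leaving out any 1 of the 4 arrays gave 44 to 47 separated genes, where 36.6 to 43.1% of all genes were separated upward. Such a count cannot fall, as fewer arrays then have to lie apart, so it is no check of the result. Quantile normalization gave 38, against 20.5% of all genes.

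Within the licensing factors, which prepare origins before synthesis, 17 of 24 (70.8%, against 22.8% of all genes) were separated upward and 0 downward (median 0.20). Cdc6, which loads the helicase, had ratios of 1.83 at 4.5 h, 2.32 at 5.0 h, 3.00 at 5.5 h and 3.97 at 6.0 h. Each array was thus higher than the one before, and the later pair was 1.67-fold over the earlier one (0.74 ± 0.17, standard error; adjusted p = 0.506, limma). At 0 h the ratio of Cdc6, which rests on 1 probe set, had been 0.828. The value was 0.15 after quantile normalization, which forces 1 common distribution on the arrays. Mcm2 had ratios of 1.15, 1.21, 1.62 and 1.66 at these times (0.48 ± 0.07). Its gap lay between 5.0 and 5.5 h, and its 2 probe sets gave steps of 0.44 and 0.52. Mcm7, another helicase subunit, had ratios of 1.12, 1.20, 1.53 and 1.61 (0.44 ± 0.07; adjusted p = 0.234, limma). Its 4 probe sets ran from 0.36 to 0.52.

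The other subunits of the MCM2 to MCM7 ring were separated upward as well. Mcm4 stood at 1.18, 1.30, 1.62 and 1.93 (0.51 ± 0.11). Mcm6 stood at 0.994, 1.09, 1.33 and 1.53 (0.45 ± 0.10), with probe sets from 0.29 to 0.72. Mcm5 had a late step of 0.40 ± 0.10 and Mcm3 one of 0.34 ± 0.09, the latter with 5 probe sets between -0.06 and 0.79. The 6 subunits thus ran between 0.34 and 0.51. Cdt1, the partner of Cdc6 in loading, was at 1.36, 1.38, 1.64 and 1.81 (0.33 ± 0.09). Gmnn encodes geminin, the inhibitor of Cdt1. It was at 0.863, 1.04, 1.12 and 1.82 (0.60 ± 0.19, 1 probe set). Most of its step came from the 6.0 h array, and without that array it was 0.25. The kinase gene Cdc7, which fires origins, had 0.28 ± 0.09 and its activator Dbf4 0.16 ± 0.09. The origin recognition subunits were lower in the order, from -0.04 for Orc5 to 0.20 for Orc6, and Mcm10, a later initiation factor, was at 0.05 ± 0.08.

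**Figure D1:**
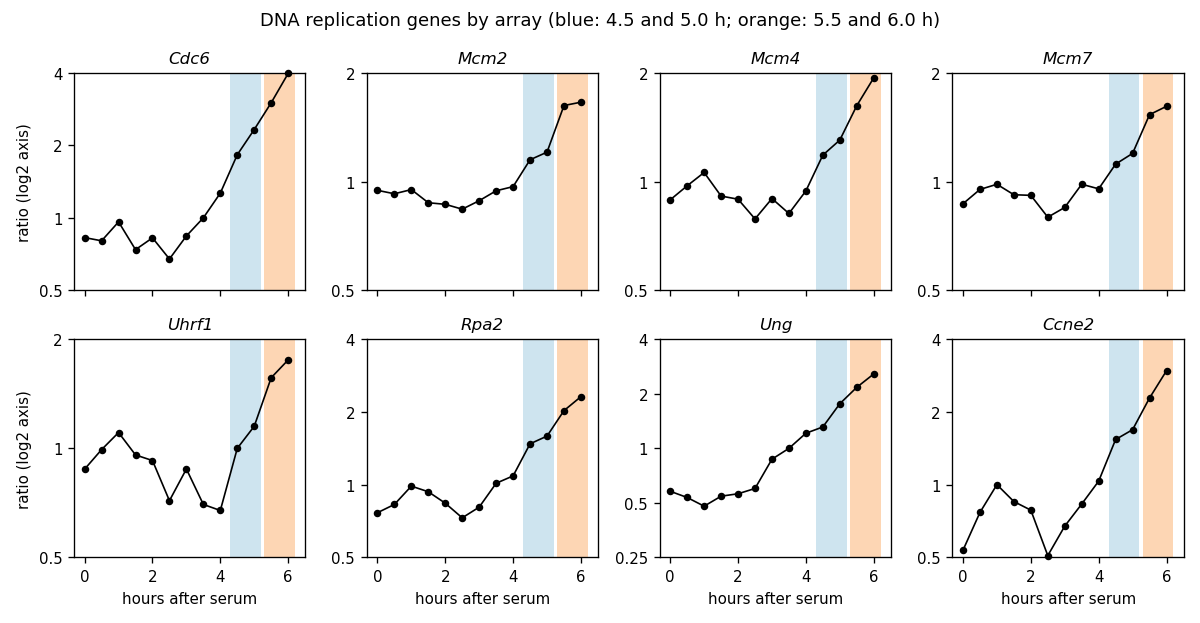
Ratios of 8 replication genes on all 13 arrays, against hours after the return to serum, with a log2 axis for the ratio; each point is 1 array, the blue band marks 4.5 and 5.0 h and the orange band 5.5 and 6.0 h. In all 8 panels both points in the orange band lie above both in the blue band, and Cdc6 reaches 3.97 at 6.0 h. Only genes separated upward were drawn, and 9 of the 51 licensing and fork genes had overlapping arrays.

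At the fork itself, 25 of 27 measured genes (92.6%, against 22.8% of all genes) were separated upward and 0 downward. Their median late step was 0.24. Uhrf1, which guides maintenance methylation to new DNA, had the second largest step of the list. Its ratios were 1.00, 1.15, 1.57 and 1.76 (0.63 ± 0.11; adjusted p = 0.234, limma), and its middle step had been -0.21. Ung, the uracil-DNA glycosylase, was at 1.31, 1.76, 2.17 and 2.58 (0.64 ± 0.17, 1 probe set). For Ung the earlier arrays already lay well above the 0 h ratio of 0.579, and quantile normalization gave 0.31. Pold3, a subunit of DNA polymerase delta, was at 1.02, 1.10, 1.41 and 1.57 (0.49 ± 0.09; adjusted p = 0.234, limma). Rpa2 encodes a subunit of the single-strand binding complex and was at 1.48, 1.59, 2.03 and 2.32 (0.50 ± 0.11). Quantile normalization gave 0.32 for Rpa2.

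Smaller steps were found for the other fork genes. The clamp loader subunits Rfc4 and Rfc3 had 0.47 ± 0.11 and 0.35 ± 0.11, against 0.16 to 0.20 for Rfc1, Rfc2 and Rfc5. The sliding clamp gene Pcna was at 1.34, 1.41, 1.51 and 1.67 (0.21 ± 0.08). The primase gene Prim1 had 0.42 ± 0.12, the mismatch repair gene Msh6 0.46 ± 0.14 and the flap nuclease gene Fen1 0.32 ± 0.09. Dnmt1, the maintenance methyltransferase, was at 0.907, 0.983, 1.08 and 1.41 (0.39 ± 0.11). It had stood at 1.02 at 0 h, so its earlier pair was not above the starting array. The DNA ligase gene Lig1 (0.16 ± 0.09) and Slbp, which binds histone mRNA (0.12 ± 0.07), had among the smaller steps. Pola1 and Rpa3 were the 2 fork genes whose arrays overlapped.

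Genes that supply nucleotides were mixed. Of 16 measured genes for thymidine, deoxynucleotides and pyrimidines, 9 (56.2%, against 22.8% of all genes) were separated upward. Downward there was 1 (6.25%, against 16.0%), and the median was 0.12. Dck, a salvage kinase for deoxynucleosides, was at 1.02, 1.05, 1.18 and 1.65 (0.43 ± 0.12). The high value at 6.0 h made most of that step, which was 0.19 without the array. Dctd, the dCMP deaminase, was at 1.60, 1.69, 2.23 and 2.04 (0.38 ± 0.11), and this difference was 0.00 after quantile normalization. The ribonucleotide reductase subunit gene Rrm2 had 0.30 ± 0.09 and thymidine kinase, Tk1, 0.31 ± 0.10. Tyms, the thymidylate synthase gene, was the 1 separated downward (-0.11 ± 0.08). Quantile normalization left 5 of the 16 (31.2%, against 20.5% of all genes) separated upward. Of 13 purine synthesis enzymes 8 (61.5%, against 22.8% of all genes) were separated upward and 0 downward (median 0.12). They included Adsl (0.27 ± 0.11) and Atic (0.20 ± 0.11), and 5 (38.5%, against 20.5%) were left after quantile normalization.

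Among cyclins, their inhibitors and E2F factors, 14 of 26 (53.8%, against 22.8% of all genes) were separated upward. Downward there was 1 (3.85%, against 16.0%), and the median was 0.08. Ccne2, the cyclin that drives entry into synthesis with Cdk2, was at 1.54, 1.69, 2.29 and 2.97 (0.69 ± 0.17; adjusted p = 0.506, limma). It rested on 1 probe set and gave 0.44 after quantile normalization. Its close relative Ccne1 had overlapping arrays (0.02 ± 0.09). E2f7, a repressing member of the E2F family, was at 0.983, 1.14, 1.33 and 1.41 (0.37 ± 0.11). E2f1, an activating member, had 0.25 ± 0.08. Ccnd1, the serum-responsive D cyclin, stood at 1.40, 1.44, 1.38 and 1.48, so that its arrays overlapped (0.00 ± 0.09) at a level above the 0.490 of 0 h. Genes of G2 and M phase showed no common direction (median 0.02). Upward 5 of 23 were separated (21.7%, against 22.8%) and downward 5 (21.7%, against 16.0%). Aurkb, a mitotic kinase, was at 0.672, 0.959, 1.00 and 1.12 (0.40 ± 0.15; 0.14 without the 4.5 h array), and Ccnb2, a mitotic cyclin, had -0.20 ± 0.10.

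Sterol synthesis genes had the lowest list median. Of 17 measured enzymes of the mevalonate pathway and of cholesterol synthesis, 11 (64.7%, against 16.0% of all genes) were separated downward and 0 upward, and the median late step was -0.24. None of them passed the adjusted threshold, and 8 had an unadjusted p under 0.05. Without any 1 of the 4 arrays 11 to 15 were separated downward, against 26.4 to 32.4% of all genes, a count that leaving out an array cannot lower. After quantile normalization 9 were separated downward, against 17.2%.

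The pathway is taken here in the order of its reactions. Hmgcs1, which makes HMG-CoA, was at 0.638, 0.548, 0.469 and 0.506 (-0.28 ± 0.12). It had been at 1.47 at 0 h, and the step of the middle window (-0.62 ± 0.12) was larger than the late one. Mvk, the mevalonate kinase gene, had -0.18 ± 0.09 and Pmvk, the next kinase, -0.27 ± 0.12. Mvd, which decarboxylates the product, was at 0.761, 0.594, 0.485 and 0.488 (-0.47 ± 0.11; adjusted p = 0.506, limma). The later pair of Mvd was 1.38-fold under the earlier one and 2.85-fold under the 0 h array. Most of its difference came before 5.5 h, and without the 4.5 h array the step was -0.29. Idi1, the isopentenyl diphosphate isomerase gene, was at 0.684, 0.642, 0.500 and 0.481 (-0.43 ± 0.10), with the gap between 5.0 and 5.5 h. Fdps, which makes farnesyl diphosphate, had overlapping arrays (0.01 ± 0.09).

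The steps from squalene onward gave similar values. Fdft1, the squalene synthase gene, was at 0.826, 0.756, 0.643 and 0.639 (-0.30 ± 0.08), with 4 probe sets from -0.57 to 0.01. Sqle, the squalene epoxidase gene, was at 0.688, 0.532, 0.515 and 0.462 (-0.31 ± 0.12). Lss, which closes the rings to lanosterol, was at 0.959, 0.841, 0.698 and 0.659 (-0.41 ± 0.09). The middle step of Lss was -0.11, against -0.47 and -0.62 for Sqle and Hmgcs1. The later enzymes Cyp51 (-0.25 ± 0.14), Nsdhl (-0.24 ± 0.08) and Hsd17b7 (-0.23 ± 0.11) were separated downward too. Ebp, a sterol isomerase gene, had the highest value of the list (0.16 ± 0.10) with overlapping arrays.

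Regulators of the pathway and fatty acid genes were less uniform. In this list 6 of 20 (30.0%, against 16.0% of all genes) were separated downward and 3 (15.0%, against 22.8%) upward. The median was -0.01. Insig1, the sterol-sensitive retention protein, was at 0.513, 0.492, 0.272 and 0.480. Its step of -0.48 ± 0.21 came almost wholly from the 5.5 h array, and was -0.07 without it. Srebf2, which encodes SREBP2, was at 0.985, 0.797, 0.754 and 0.697 (-0.29 ± 0.13; -0.14 without the 4.5 h array). The fatty acid synthesis genes Fasn and Acaca both had -0.26, with standard errors of 0.11 and 0.08. Insig2, the second retention protein, was on the other side (0.19 ± 0.08), as was Srebf1 (0.15 ± 0.11).

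**Figure D2:**
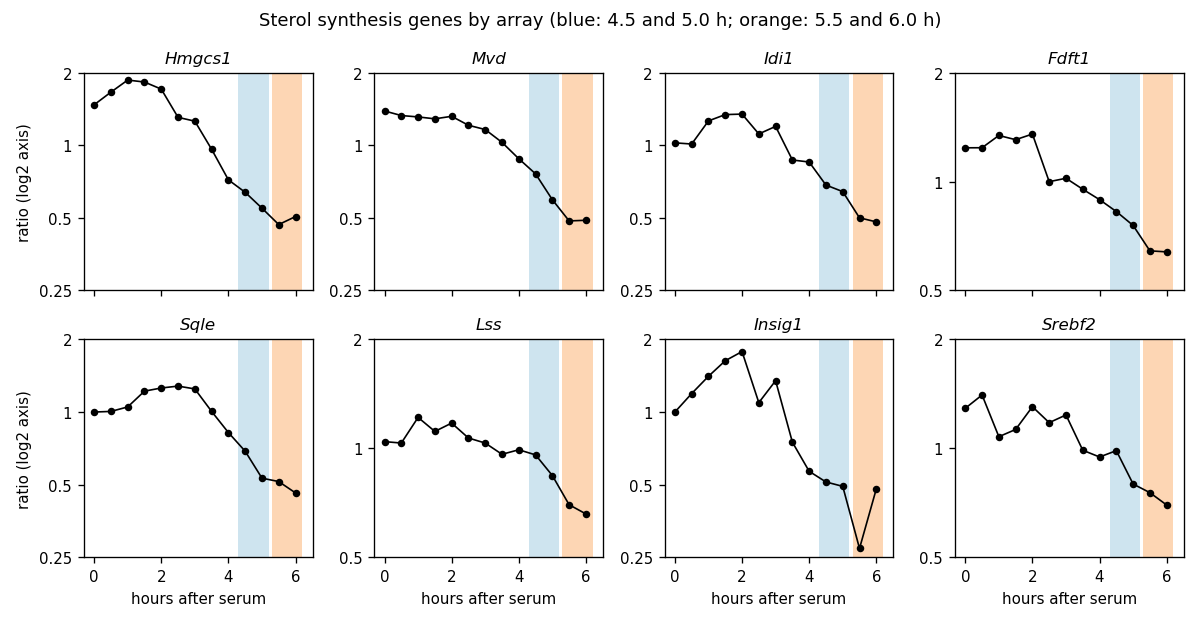
Ratios of 8 sterol synthesis genes and regulators on all 13 arrays, against hours after the return to serum, on a log2 axis; points are single arrays, the blue band marks 4.5 and 5.0 h and the orange band 5.5 and 6.0 h. Both points in the orange band lie below both in the blue band in all 8 panels, and the single low point of Insig1 is the 0.272 of the 5.5 h array. Only genes separated downward were drawn, which held for 11 of 17 sterol synthesis enzymes and for 6 of 20 regulators and fatty acid genes.

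Several genes that serum is known to induce were lower in the later pair. Of 22 immediate-early factors outside the AP-1 family, 10 (45.5%, against 16.0% of all genes) were separated downward. Upward there were 2 (9.09%, against 22.8%), and the median was -0.07. Egr2, a zinc finger factor, was at 0.833, 0.631, 0.512 and 0.476 (-0.55 ± 0.16), close to the 0.545 of the 0 h array. Leaving out the 4.5 h array gave -0.35. Egr1 was at 0.793, 0.706, 0.641 and 0.589 (-0.28 ± 0.20). The activity-regulated gene Arc had 3 arrays between 0.702 and 0.721 and only the 6.0 h array at 0.495 (-0.29 ± 0.18). Myc, the growth regulator, had overlapping arrays (-0.12 ± 0.19). In the AP-1 family 4 of 12 (33.3%, against 16.0%) were separated downward and 2 (16.7%, against 22.8%) upward. Junb had -0.20 ± 0.13, and Jdp2, a repressing partner of Jun, had 0.20 ± 0.07.

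Secreted signals and their feedback genes included some of the largest differences. Ptgs2, the inducible cyclooxygenase gene, was at 0.929, 0.642, 0.576 and 0.381 (-0.72 ± 0.22; adjusted p = 0.583, limma). The later pair was 1.65-fold under the earlier one and still 5.69-fold over the 0 h array. Its value moved with the setting, to -0.45 without the 4.5 h array, -0.42 without the 6.0 h array and -1.13 after quantile normalization. Hbegf and Ereg, ligands of the epidermal growth factor receptor, had -0.55 ± 0.33 and -0.52 ± 0.25. Hbegf was at 1.11, 0.930, 0.731 and 0.655, and Ereg at 1.06, 1.00, 0.771 and 0.669, so each array of both genes was lower than the one before, and both missed the threshold. The other 5 measured genes of their list, Nrg1 among them, had overlapping arrays.
Pdgfa, a platelet-derived growth factor chain, was at 1.19, 1.03, 0.787 and 0.792 (-0.49 ± 0.13). Timp3, an inhibitor of matrix proteases, was at 1.01, 0.890, 0.757 and 0.554 (-0.55 ± 0.18), and its 4 probe sets ran from -0.63 to -0.48. Without the 6.0 h array it gave -0.33. Nppb, which encodes a natriuretic peptide precursor, was at 1.00, 0.971, 0.675 and 0.688 (-0.53 ± 0.09; adjusted p = 0.234, limma). Its arrays agreed closely within each pair, and it rests on 1 probe set. Cxcl5, a chemokine gene, went the other way, with 0.755, 0.795, 1.04 and 1.64 (0.75 ± 0.29, 1 probe set). Without the 6.0 h array its late step was 0.42. The MAP kinase phosphatase genes Dusp6 and Dusp5 had -0.29 ± 0.15 and -0.28 ± 0.14. In their feedback list 5 of 18 (27.8%, against 16.0% of all genes) were separated downward and 3 (16.7%, against 22.8%) upward.

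**Figure D3:**
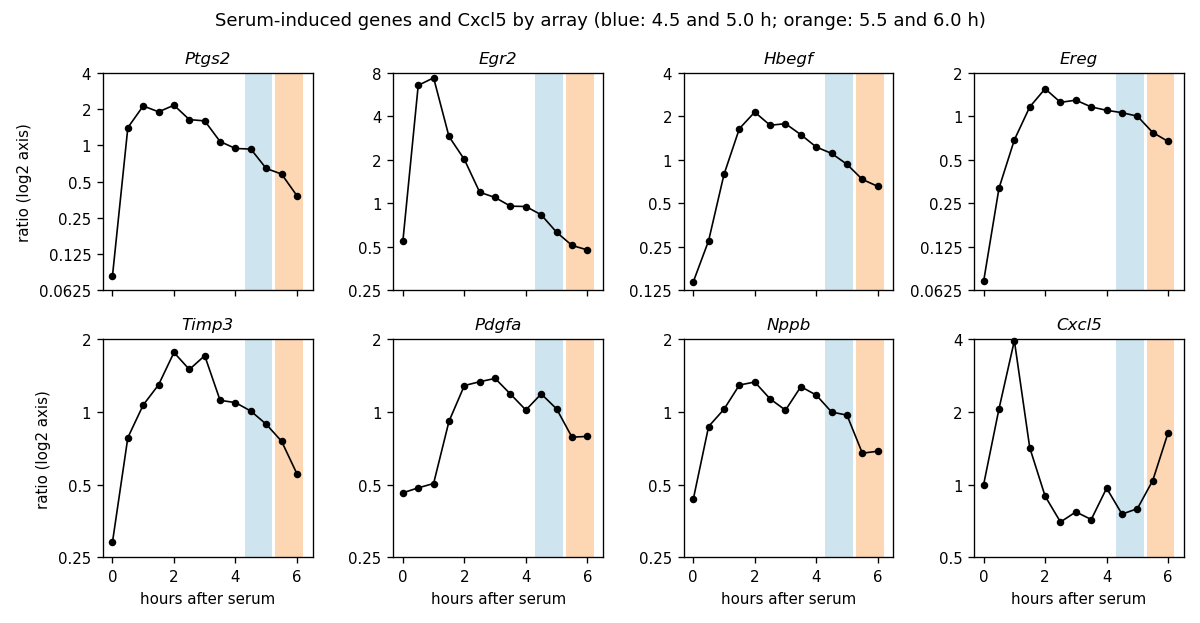
Ratios of 7 serum-induced genes and of Cxcl5 on all 13 arrays, against hours after the return to serum, on a log2 axis; points are single arrays, the blue band marks 4.5 and 5.0 h and the orange band 5.5 and 6.0 h. In the first 7 panels both points in the orange band lie below both in the blue band, and in the Cxcl5 panel both lie above, with 1.64 at 6.0 h. Only separated genes were drawn.

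Sarcomere genes were higher by small amounts in the later pair. Of 31 sarcomere and differentiation genes, 17 (54.8%, against 22.8% of all genes) were separated upward and 3 (9.68%, against 16.0%) downward. Their median was 0.14, and 13 (41.9%, against 20.5%) were separated upward after quantile normalization. Casq2, a calcium store protein, was at 1.16, 1.04, 1.48 and 1.28 (0.33 ± 0.10). Myh7, a myosin heavy chain gene, was at 0.770, 1.15, 1.24 and 1.27 (0.41 ± 0.14). That value rests on the low 4.5 h array and was 0.12 without it. Tnnt3, a troponin gene, had 0.27 ± 0.10 and Acta1, skeletal actin, 0.27 ± 0.07. Of 20 myogenic factors and myoblast markers, 6 (30.0%, against 22.8% of all genes) were separated upward and 3 (15.0%, against 16.0%) downward (median 0.06), which is near the background, with Myod1 at 0.13 ± 0.10, Myog at 0.14 ± 0.08, and the surface proteins Itga7 and Cd34 both at 0.17. Markers of other cell types are given beside these, and their part in the results was not tested. Fibroblast markers had a median of -0.06, with Thy1 at 0.31 ± 0.11 and Dpt at -0.37 ± 0.11. They were separated upward in 1 of 7 (14.3%, against 22.8% of all genes) and downward in 3 (42.9%, against 16.0%). For blood and endothelial markers this was 1 (7.14%) and 4 (28.6%) of 14 (median -0.08), with Tek at 0.20 ± 0.11 and overlapping arrays for Vwf (-0.20 ± 0.17). For adipocyte and osteoblast markers it was 2 and 2 of 7 (28.6% and 28.6%), with Cebpa at 0.20 ± 0.14 and Pparg at -0.11 ± 0.17.

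The heat shock, nuclear pore, proteasome and aminoacyl-tRNA synthetase lists had positive medians, and that of endoplasmic reticulum chaperones was negative (-0.04). Of these 21 chaperone genes, 4 (19.0%, against 22.8% of all genes) were separated upward and 4 (19.0%, against 16.0%) downward. Of 22 heat shock and TRiC genes, 13 (59.1%, against 22.8%) were separated upward and 0 downward, with a median of 0.10. After quantile normalization 9 (40.9%, against 20.5% of all genes) were separated upward. Hspa1a, an inducible chaperone, was at 0.708, 0.888, 1.00 and 1.15 (0.43 ± 0.15; 0.27 without the 4.5 h array), and mitochondrial Hspd1 had 0.21 ± 0.10. Of the TRiC chaperonin, Cct2 and Cct5 had 0.20 ± 0.08 and 0.19 ± 0.08. Among 29 nuclear pore and transport genes 15 (51.7%, against 22.8%) were separated upward and 0 downward (median 0.08). These included the scaffold genes Nup107 (0.25 ± 0.07) and Nup43 (0.21 ± 0.08). That count was 7 (24.1%, against 20.5% of all genes) after quantile normalization and 25 (86.2%, against 36.6%) without the 6.0 h array, so after quantile normalization the share was near the background. Leaving out an array can only keep or raise the count. Of 30 proteasome subunits 11 (36.7%, against 22.8%) were separated upward and 0 downward (median 0.07), with Psmd2 and Psmd12 at 0.21 and 0.20. Of 18 aminoacyl-tRNA synthetases 8 (44.4%, against 22.8%) were separated upward and 1 (5.56%, against 16.0%) downward. Their median was 0.11, with Vars at 0.28 ± 0.08 and Farsb at 0.20 ± 0.08.

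**Figure D4:**
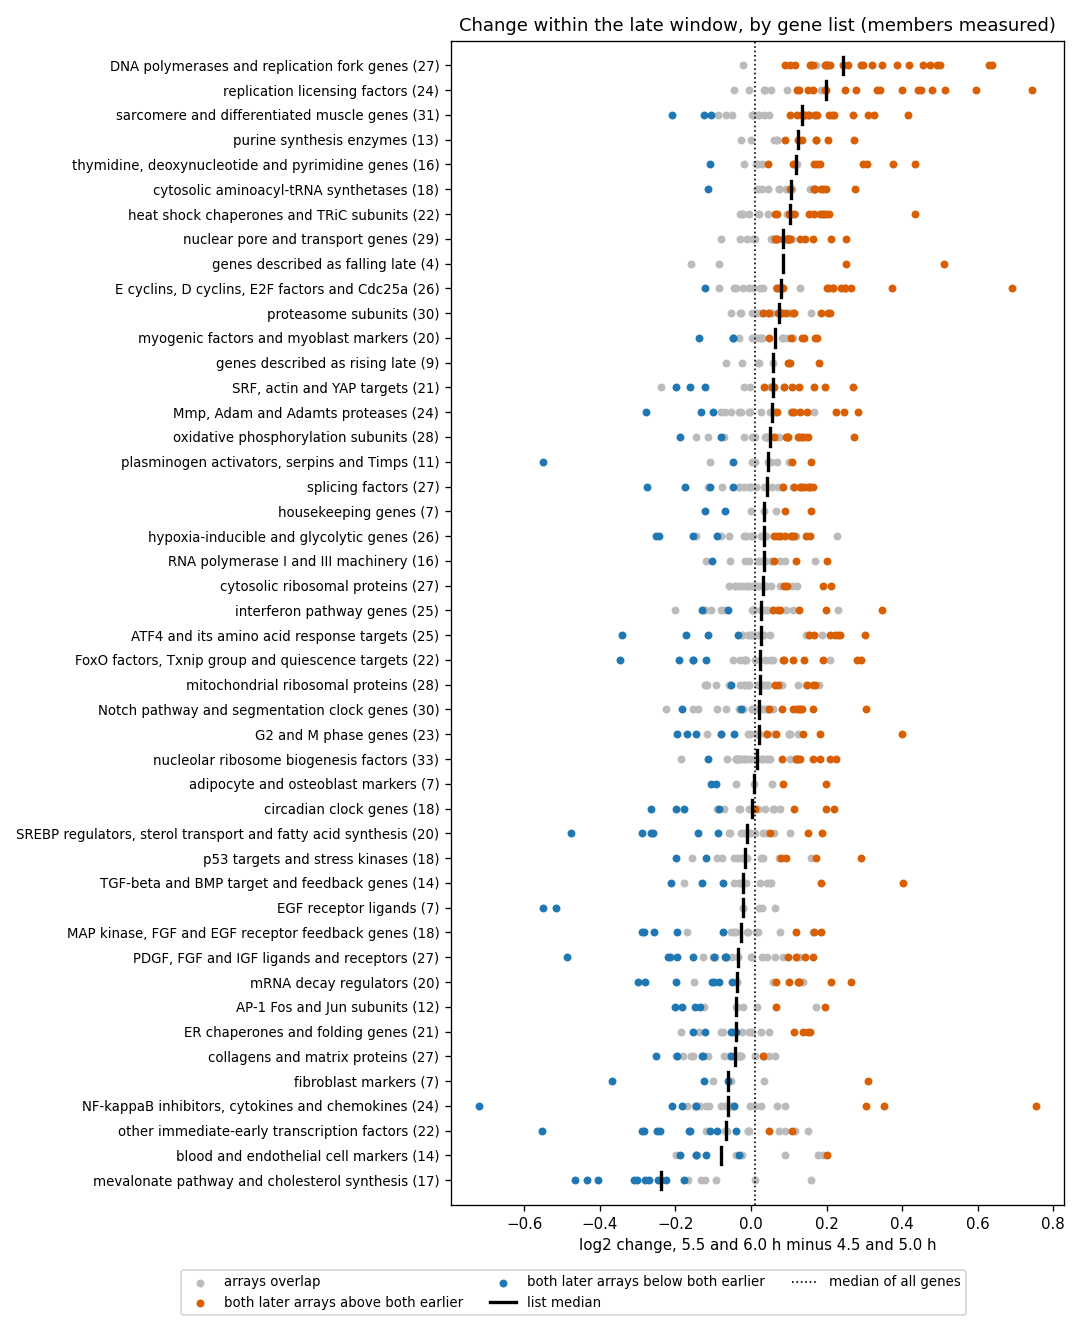
Late step of every measured member of the 46 gene lists (horizontal axis, log2, later pair minus earlier pair), 1 row per list with its number of measured members; orange and blue points are genes separated upward and downward, grey points have overlapping arrays, black bars are list medians and the dotted line is the median of all genes. Replication genes lie at the top and sterol synthesis genes at the bottom, with medians of 0.24 (fork), 0.20 (licensing) and -0.24.

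The other functional lists, from ribosome biogenesis to housekeeping genes, had medians between -0.06 and 0.06. Their counts separated upward and downward stand beside 22.8% and 16.0% of all genes. Nucleolar ribosome biogenesis factors were separated upward in 9 of 33 (27.3%) and downward in 1 (3.03%). Their median was 0.01, with Nhp2 at 0.23 ± 0.11 and Pno1 at 0.21 ± 0.10. RNA polymerase I and III genes were at 3 and 1 of 16 (18.8% and 6.25%). Cytosolic ribosomal proteins were at 4 and 0 of 27 (14.8% and 0%). Mitochondrial ribosomal proteins were at 5 and 1 of 28 (17.9% and 3.57%). These lists had medians between 0.02 and 0.03. Rps20 was at 0.21 ± 0.08, with probe sets from 0.05 to 0.60, and Rpl8 at 0.19 ± 0.09. Oxidative phosphorylation subunits were at 10 and 2 of 28 (35.7% and 7.14%), with Atp5b at 0.27 ± 0.08 and Cox5b at -0.19 ± 0.08. The probe sets of Cox5b ran from -0.58 to -0.04. Notch and segmentation clock genes were at 9 and 2 of 30 (30.0% and 6.67%, median 0.02). Hey1, a Notch target repressor, was at 0.801, 0.892, 1.02 and 1.07 (0.30 ± 0.08), and Hes5 overlapped (-0.23 ± 0.13). Circadian genes were at 4 and 4 of 18 (22.2% and 22.2%), so that their upward share was near that of all genes. The repressor Cry2 was at 0.22 ± 0.11 and Nfil3 at -0.26 ± 0.15. Targets of TGF-beta and BMP were at 2 and 3 of 14 (14.3% and 21.4%). There Nog, a BMP antagonist, was at 0.793, 0.878, 1.07 and 1.13 (0.40 ± 0.12) and the corepressor Tgif1 at -0.21 ± 0.14.

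Collagens and matrix proteins were separated upward in 1 of 27 (3.70%, against 22.8% of all genes) and downward in 5 (18.5%, against 16.0%). Their median was -0.04, with Postn at -0.25 ± 0.11 and overlapping arrays for Col1a1 (-0.20 ± 0.12). For matrix proteases the counts were 8 and 3 of 24 (33.3% and 12.5%), with Adamts5 at 0.28 ± 0.14 and Mmp23 at -0.28 ± 0.10. The probe sets of Adamts5 ran from -0.10 to 0.57. Actin and YAP targets were at 9 and 3 of 21 (42.9% and 14.3%), and Ccn1, a matricellular protein, had widely spread, overlapping arrays (-0.24 ± 0.46). Growth factor ligands and receptors were at 4 and 8 of 27, NF-kappaB and cytokine genes at 3 and 5 of 24, and mRNA decay regulators at 7 and 7 of 20, with Zfp36 at -0.28 ± 0.17 and Zc3h12a at -0.30 ± 0.14. Quiescence and FoxO targets were at 7 and 5 of 22 (31.8% and 22.7%), with Klf15 at -0.35 ± 0.10 and the stress sensor Sesn1 at 0.29 ± 0.13. The probe sets of Sesn1 ran from -0.06 to 0.54. Amino acid response genes were at 7 and 4 of 25 (28.0% and 16.0%), and there Ddit4 (0.30 ± 0.17) and Ddit3 (-0.34 ± 0.20) differed in direction. Hypoxia and glycolysis genes were at 9 and 4 of 26 (34.6% and 15.4%), with Ndrg1 at -0.24 ± 0.09 and Pfkfb3 at -0.25 ± 0.12. Splicing factors were at 8 and 4 of 27 (29.6% and 14.8%), where the kinases Clk1 and Clk4 had -0.27 ± 0.09 and -0.18 ± 0.12. Interferon genes (6 and 2 of 25, 24.0% and 8.00%) had Usp18 at 0.35 ± 0.16. The p53 targets were at 4 and 2 of 18 (22.2% and 11.1%), and plasminogen activators and inhibitors at 2 and 2 of 11 (18.2% and 18.2%). Housekeeping genes were at 2 and 2 of 7 (28.6% and 28.6%), with Gusb at 0.16 ± 0.08 and Actb at -0.12 ± 0.12. The 2 probe sets of Actb gave -0.23 and -0.01. The array controls went the other way, with all 6 probe sets of Gapdh and actin positive (median 0.073). The upward shares of the interferon and p53 lists were near that of all genes.

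Genes described earlier as moving between the early and late windows were examined next. Their lists were chosen with earlier results of these same data known, so they are no independent source. Of 9 late risers 3 (33.3%, against 22.8% of all genes) were separated upward and 0 downward. Serpinb2, an inhibitor of plasminogen activation, was at 1.53, 1.62, 1.95 and 1.46 (0.10 ± 0.35) after 0.0199 at 0 h. Gpr176, an orphan receptor gene, was at 1.27, 1.40, 1.30 and 1.32 (-0.02 ± 0.25), and Hmga2, a chromatin protein gene, had 0.06 ± 0.16. Alcam, an adhesion molecule, was at 1.32, 1.52, 1.61 and 1.60 (0.18 ± 0.08; -0.03 after quantile normalization). Of 4 late fallers 2 were separated upward and 0 downward (median 0.08). Nrep was at 0.565, 0.637, 0.764 and 0.956 (0.51 ± 0.14) after 2.93 at 0 h. Each of its 4 arrays was above the one before. Pxylp1 had 0.25 ± 0.12, but its 3 probe sets ran from -0.07 to 0.75, while Gulp1 (-0.08 ± 0.13) and Tnc (-0.16 ± 0.29) overlapped.

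The genes with the smallest p outside these lists were of mixed kinds. They were taken from separated genes only, so their separation was a condition of the choice. Ufl1, the ligase of the UFM1 protein tag, was at 0.748, 0.749, 1.05 and 1.07 (0.50 ± 0.09; adjusted p = 0.234, limma), with nearly equal values inside each pair. Swsap1 (0.44 ± 0.09) and Rfwd3 (0.34 ± 0.07), both known from DNA repair by recombination, Poglut1 (0.33 ± 0.07), a glycosyltransferase that acts on Notch, and Slc18a3 (0.41 ± 0.09), a vesicular transporter, were also separated upward. On the lower side stood Fam71a (1.08, 1.05, 0.773 and 0.693; -0.54 ± 0.08) and the kinase gene Stk32a (1.46, 1.15, 0.874 and 0.679; -0.75 ± 0.17). Adam6b (-0.48 ± 0.10), 4930548H24Rik (-0.45 ± 0.09), the signalling adaptors Shc3 (-0.42 ± 0.09) and Gab3 (-0.39 ± 0.09), Adgrb1 (-0.39 ± 0.08), Espn (-0.36 ± 0.08) and Acot13 (-0.31 ± 0.07) completed the group. Each of those 7, and every other gene named in this paragraph, rests on a single probe set.

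The 3 intervals of 0.5 h within the late window differed in size. The median replication gene was higher by 0.07 from 4.5 to 5.0 h, by 0.14 from 5.0 to 5.5 h and by 0.16 from 5.5 to 6.0 h. For the median sterol synthesis gene these differences were -0.18, -0.10 and -0.02, with the largest first. Nucleotide genes differed mainly from 5.0 to 5.5 h (0.14, against 0.00 before and 0.03 after), and heat shock genes had 0.05, 0.09 and -0.02. Each interval compares 1 array with 1 other and has no error of its own, and the median of all genes stayed between -0.004 and 0.008.

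**Figure D5:**
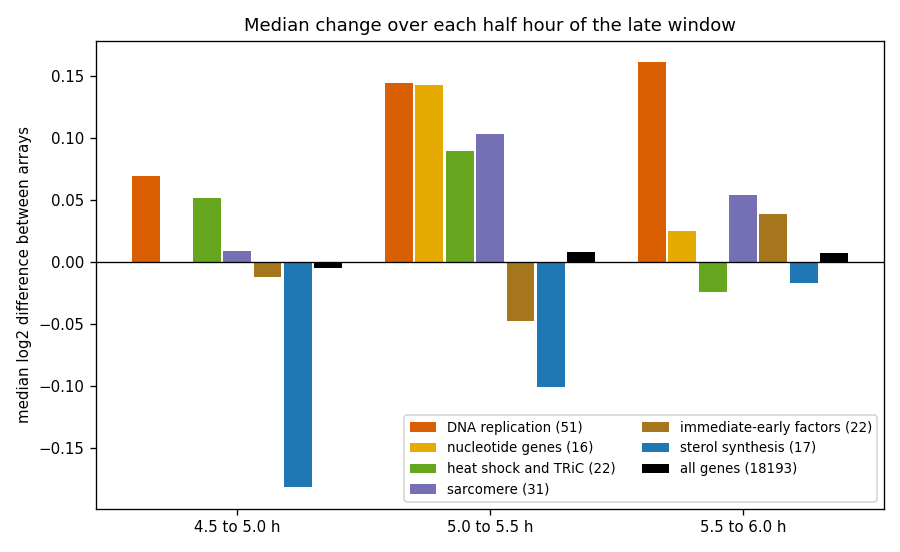
Median log2 difference between neighbouring arrays (vertical axis) for 6 gene lists and all genes, over the 3 intervals of 0.5 h in the late window (horizontal axis); bars start at 0, numbers in the key are measured genes, and there are no error bars because each difference is between 2 single arrays. Replication genes have a positive bar in all 3 intervals (0.07, 0.14 and 0.16), and the sterol bar shrinks from -0.18 to -0.02.

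Whether the late step differed from earlier steps of the same length was tested in the same fit, on arrays that the steps do not share. Against the middle step (3.5 and 4.0 h minus 2.5 and 3.0 h), 0 of 18193 genes (0%) were called by limma, with 1568 at an unadjusted p under 0.05. The smallest adjusted p values were those of Socs3, a cytokine signalling inhibitor (0.102), Ufl1 (0.148), Ydjc (0.159), Dvl2 (0.159), a Wnt pathway protein, and Cavin2 (0.160), a caveolar protein. Medians of the middle step were 0.14 for replication genes and -0.21 for sterol synthesis genes, on the same side as the late ones. Immediate-early factors had -0.26 then and -0.07 in the late step. Without any test of the lists, these medians are descriptions.

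Against the early step (1.5 and 2.0 h minus 0.5 and 1.0 h), 164 genes (0.901%) were called by limma, 104 (0.572%) with a higher and 60 (0.330%) with a lower late step. In the 5 genes with the smallest p the early step was the larger one. Foxc2, a forkhead factor, had an early step of 2.24 and a late one of -0.09 (difference -2.33 ± 0.28; adjusted p = 0.00922, limma). Pdgfa had 1.13 and -0.49, and Dlx3, a homeobox factor, 1.18 and -0.03. Jun, the AP-1 subunit, had -1.04 and 0.07, and the iron exporter gene Slc40a1 -1.36 and 0.36. Of the 51 replication genes 4 were called, all with a higher late step. They were Mcm2 (-0.11 early and 0.48 late, adjusted p = 0.0216 by limma), Mcm7 (-0.08 and 0.44), Pold3 (-0.23 and 0.49) and Uhrf1 (-0.15 and 0.63). Of 17 sterol genes Idi1 was called, with 0.25 early and -0.43 late (adjusted p = 0.0396, limma). The number of calls depended on single arrays. It was 0 without the 4.5 h array, 3 without 6.0 h, 10 without 5.0 h, 14 without 2.0 h, 39 without 0.5 h, 258 without 1.5 h and 483 without 1.0 h, and 27 after quantile normalization.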

How the data were processed

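RNA of 13 arrays, 1 per time point, was profiled. The deposited values are linear ratios per probe set. RMA was used per the submitters' processing notes, and its version and how the ratios were formed are not given in the sources used here. A ratio removes the absolute level, so no filter on dim probe sets was possible. Of 45101 probe sets, 64 array controls were left out. Of the remaining 45037, 34945 name 1 gene in the platform annotation, 932 several and 9160 none. The IDs of 34741 were found in the RefSeq gene table (GRCm38.p6), with 0 symbols changed. A gene's value is the mean log2 ratio over probe sets that name only that gene (18193 genes, 9010 with several probe sets).

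The log2 of the deposited ratio was fitted with limma 3.58.1 in R 4.3.3 (lmFit, eBayes, two-sided, Benjamini-Hochberg, threshold 0.05). All 13 arrays entered, with means of pairs of neighbouring times and 0 h alone, which leaves 6 residual degrees of freedom. Such p-values measure the spread between neighbouring times, not between replicates, and the number of arrays limits the precision. The fit was tested on simulated data. No batch was tested, as no array date was at hand.

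Named genes are the 12 with the smallest p in each direction among separated genes, as no gene passed, the 2 members of each list with the largest absolute change, both lists of genes described earlier as late, and the 5 smallest p of each contrast of steps. Zfy2 and other list members were named after their values were seen. The members and the 46 gene lists were chosen with earlier results of these data known. Alternatives were quantile normalization, arrays centred on their median, a robust prior with a variance trend, windows of 4 arrays, the 4 late arrays alone, a minimum log2 change of 1, leaving out probe sets under a ratio of 1 on all arrays, 1 probe set per gene, and leaving out each array. Tables and figures were made in Python 3.11.15 (with numpy 2.4.6, pandas 2.3.3, matplotlib 3.10.9).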

Additional observations from a re-analysis of the deposited data

Results flagged for a closer look

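For 22 named genes the late step differed from the early step by a direct test (limma contrast of the 2 steps, adjusted p under 0.05). The differences below are late minus early on the log2 scale. They were positive for Cxcl5 (2.09), Slc40a1 (1.72), Sesn1 (1.37), Nrep (1.11), Jun (1.10), Uhrf1 (0.782), Ufl1 (0.730), Pold3 (0.721), Cavin2 (0.642), Mcm2 (0.587) and Mcm7 (0.518). They were negative for Serpinb2 (-2.97), Hbegf (-2.55), Foxc2 (-2.33), Ereg (-2.04), Pdgfa (-1.62), Timp3 (-1.28), Dlx3 (-1.21), Hmga2 (-1.12), Nppb (-1.01), Fam71a (-0.777) and Idi1 (-0.684). The test called 0 genes once the 4.5 h array was left out, so each of these calls was lost then.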

How the results depend on the processing

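No late step of a gene was called in any of the 21 alternatives. Of the probe sets, 22 (9 higher, 13 lower) were called without the 5.5 h array, and 0 in the other settings (range over arrays left out 0 to 22). Late against middle gave 4 calls after quantile normalization. Late against early gave 27 after quantile normalization, 48 with an absolute log2 difference of at least 1, and 0 to 483 with 1 array left out. Quantile normalization gave 5 nucleotide, 7 nuclear pore and 5 purine genes separated upward, and leaving out 1 array gave 17 to 25 nuclear pore genes. Counts of separated genes cannot fall when an array is left out. With 1 array of a pair left out, its remaining array is taken to have the same spread as other pairs. The list counts were added after the data were seen.

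Among late steps of single named genes and their contrasts, 2882 values kept direction and side of the threshold and 24 values of 16 genes changed sign. Another 12 values, late against early for Dlx3, Foxc2, Jun, Pdgfa and Slc40a1, kept their direction and lost the call (adjusted p from 0.0541 to 0.0874, limma). The values that changed sign after quantile normalization were those of Alcam (-0.027), Cdca7 (-0.00065), Dynap (-0.089), Gm2115 (-0.14), Hmga2 (-0.0056), Kcnk2 (-0.30) and Serpinb2 (-0.19). With 1 probe set per gene, Gulp1 (0.10) and Socs3 (-0.078) changed sign. With 1 array left out, the ranges that cross 0 were those of Bcat1 (-0.17 to 0.038), Ccn1 (-0.69 to 0.22), Dlx3 (-0.070 to 0.014), Dynap (-0.077 to 0.12), Gm2115 (-0.014 to 0.058), Gpr176 (-0.096 to 0.047), Gulp1 (-0.32 to 0.15), Hmga2 (-0.026 to 0.14), Mrpl18 (-0.0066 to 0.37), Serpinb2 (-0.11 to 0.31), Socs3 (-0.075 to 0.093), Tnc (-0.32 to 0.0059) and Vwf (-0.43 to 0.029). Socs3 (adjusted p = 0.0287, limma) and Ydjc (adjusted p = 0.0454, limma) passed late against middle after quantile normalization. The causes were not tested. No paired analysis was possible because each time point has 1 array and the labels number no replicates. The ratios hold no signal, so limits set by signal over background are unknown.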
